A study of Mus musculus with 17 samples.

Results

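Fbxw7, Phf6, Etv6, Rb1, Ezh2, Suz12, Nf1 and Dnmt3a are genes that are recurrently mutated or deleted in T-cell acute lymphoblastic leukemia, and they were followed here mouse by mouse in thymic lymphomas that arise without Tcf1. All 8 had at least 1 probe set with a single gene symbol on the Affymetrix mouse genome array, among 18193 genes that had one, and 24 probe sets belonged to them. For each gene the brightest probe set, judged by the average of the 17 arrays, stands for it, and its other probe sets are given beside it. Thymi came from 8 C57Bl/6 Tcf1-/- mice (ΔVII/ΔVII, both alleles mutated) with a thymic lymphoma, from 4 mice of the same genotype without a tumor, called Tcf1-/- thymi below, and from 5 heterozygous Tcf1+/- mice (wt/ΔVII) that served as controls. No wild-type thymus was among them, so the controls also carry 1 mutated allele, and the ages of the mice were not given in the sources used here. The study's methods name homogenized thymocytes and its figure legends RNA of thymi, and no sorting is described for the arrays. All values are log2 signals on which a difference of 1 is a doubling.

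The 8 genes act at different levels of the cell. Fbxw7 is the part of an SCF ubiquitin ligase that recognizes Notch1, Myc and cyclin E for degradation, Rb1 holds E2F factors inactive until the cell enters S phase, and Nf1 switches off Ras by speeding GTP hydrolysis. Ezh2 and Suz12 are the methyltransferase and a core subunit of Polycomb repressive complex 2 (PRC2), which methylates histone H3 at lysine 27 and keeps developmental genes silent. Dnmt3a methylates DNA de novo, Phf6 is a PHD finger protein that binds the NuRD chromatin remodeling complex, and Etv6 is a repressor of the ETS family. In human T-cell leukemia these genes are mostly hit by mutation or deletion, and an array can show a loss only where the level of the transcript goes with it.

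Arrays of lymphomas 1 and 2 and of Tcf1+/- mice 1 and 2 stood apart from the other 13. Their interquartile range was 2.93 to 3.06, against 3.49 to 3.75 in the others, and the signal at the 3′ end of Gapdh exceeded that at its 5′ end by 1.12 to 2.63, against -0.13 to 0.96. No Tcf1-/- thymus was among the 4, so some differences of the 8 genes are also given without them. Differences of all other genes are over all arrays only. Y-linked transcripts were detected in 2 of 8 lymphomas, 4 of 4 Tcf1-/- thymi and 4 of 5 Tcf1+/- thymi. T-lineage markers were high in all thymi, with a mean over 9 genes of 11.17 to 12.03 in lymphomas, 11.02 to 11.73 in Tcf1-/- thymi and 12.11 to 12.46 in Tcf1+/- thymi. Signal of Tcf7, the gene that encodes Tcf1, was not analysed here.

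Promoter sequences, from RefSeq (GRCm38.p6), are shown for Etv6, the only gene of the 8 that passed the test on its main probe set, and for both PRC2 subunits, whose main probe sets varied together. Of the 8 genes, 6 had a promoter in the table used, with 10 start sites. The 250 bases before each start were searched on both strands for letters of 4 motif families, Tcf/Lef (CTTTGAA or CTTTGTT), E2F (TTTCCCGC, TTTCGCGC, TTTGCCGC or TTTGGCGC), CCAAT, and the CHR element (TTTGAA, which lies within the first Tcf/Lef form). Capitals mark the letters found. Families and the sequences to print were settled on after matches had been seen, and a match is a description of letters, not a binding site.
Suz12, chr11:79992856-79993105, plus strand: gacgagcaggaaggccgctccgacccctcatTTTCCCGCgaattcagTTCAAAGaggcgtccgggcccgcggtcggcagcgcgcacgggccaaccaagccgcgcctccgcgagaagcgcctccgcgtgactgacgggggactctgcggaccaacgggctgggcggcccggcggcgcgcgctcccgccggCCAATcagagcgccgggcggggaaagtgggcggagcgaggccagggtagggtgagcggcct
Ezh2, chr6:47595245-47595273, minus strand: gttggcaaaagAACAAAGacagcgactgt
Etv6, chr6:134035450-134035699, plus strand: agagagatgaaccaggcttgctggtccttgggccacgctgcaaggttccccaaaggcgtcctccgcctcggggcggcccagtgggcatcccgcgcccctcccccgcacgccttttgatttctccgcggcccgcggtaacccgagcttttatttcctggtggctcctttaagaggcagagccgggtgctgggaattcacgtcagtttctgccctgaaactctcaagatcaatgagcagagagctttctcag
Suz12 held 1 match each for E2F, beginning 219 bases before the start, for Tcf/Lef with the CHR letters inside it, beginning 203 bases before it on the opposite strand, and for CCAAT, beginning 61 bases before it. Ezh2 held a Tcf/Lef match on the opposite strand, beginning 232 bases before the start used, and 3 CCAAT matches outside the stretch shown. That start lies inside the annotated Ezh2 gene, whose 5′ end is at 47595270. Most of its window, 47595031 to 47595280, and the Tcf/Lef match therefore lie within the gene. None of the 4 families was found in the Etv6 window. Tcf/Lef letters were present in 9.17% of all 32851 promoter windows of this length, E2F letters in 1.86%, CHR letters in 16.0% and CCAAT in 33.8%, and among the 10 windows of the 8 genes they were in 2, 1, 1 and 2 windows.

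Few of the 8 genes changed between groups on their main probe sets. Between lymphomas and Tcf1-/- thymi 0 of 8 passed the test (limma, Benjamini-Hochberg adjusted p under 0.05 over all 13755 genes tested), where 14.7% of all genes did, 6.34% as higher and 8.35% as lower. Between lymphomas and Tcf1+/- thymi 1 of 8 passed, as higher, where 12.7% of all genes did, 8.51% as higher and 4.21% as lower. Between Tcf1-/- and Tcf1+/- thymi 1 of 8 passed, also as higher, where 14.8% did, 10.1% as higher and 4.7% as lower. The call was Etv6 both times, and 1 gene of 8 is close to the share among all genes. Groups did not overlap for 0 of the 8 genes between lymphomas and Tcf1-/- thymi, where 4.41% of all genes lay wholly above and 6.27% wholly below, nor between lymphomas and Tcf1+/- thymi, where 4.78% and 1.9% did. At an unadjusted p under 0.05, Ezh2 and Dnmt3a were higher in lymphomas than in Tcf1-/- thymi, and Nf1 higher in lymphomas than in Tcf1+/- thymi.

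**Figure D1:**
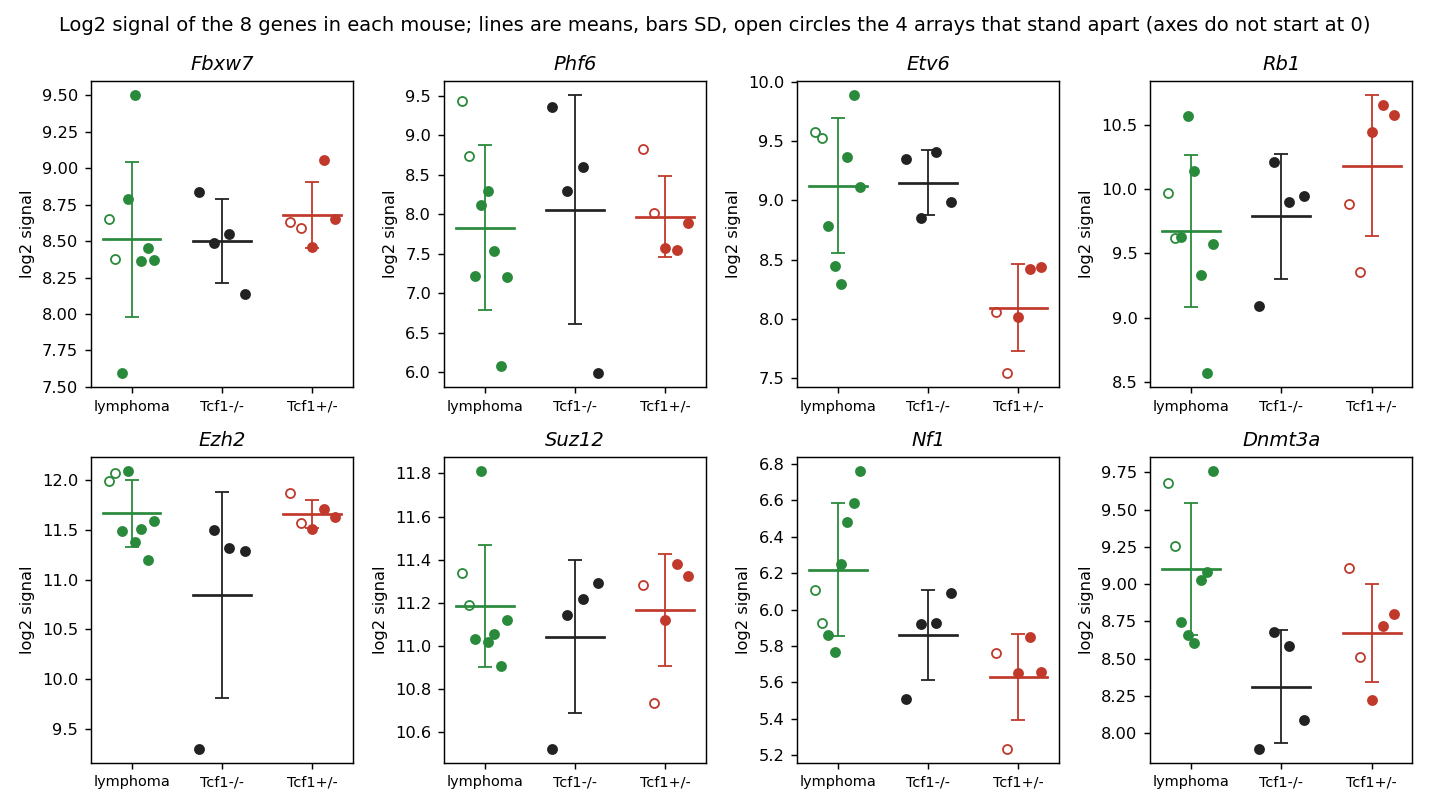
Log2 signal (vertical axes, which do not start at 0) of the 8 genes in each mouse, for 8 lymphomas, 4 Tcf1-/- thymi and 5 Tcf1+/- thymi; horizontal lines are group means, bars the SD, and open circles the 4 arrays that stood apart. Etv6 is the only gene whose 4 Tcf1-/- thymi all lie above the Tcf1+/- thymi, and 1 Tcf1-/- thymus lies far below all others for Ezh2, at 9.30.

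Single lymphomas with a loss were looked for first. By the measure used, a lymphoma more than 1 below the lowest of the 9 tumor-free thymi, 0 of the 8 genes had such a tumor, where 7.33% of all genes tested had at least 1. None of the 24 probe sets showed one either. In the other direction, a lymphoma more than 1 above all tumor-free thymi, 0 of the 8 genes had one on the main probe set, where 7.93% of all genes did. Among the other probe sets there was 1 such lymphoma each on 1449661_at and 1420022_s_at of Suz12 (lymphoma 4) and on 1423065_at of Dnmt3a (lymphoma 1). Lymphomas 1 and 2, on arrays that stood apart, had 564 and 620 genes that far below, whereas the other 6 lymphomas had 66 to 177.

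Short of that distance, 2 genes had a lymphoma more than 0.5 below all tumor-free thymi on the main probe set. For Fbxw7 it was lymphoma 3, at 7.59, with the lowest tumor-free thymus at 8.14 and the median lymphoma at 8.41. For Rb1 it was lymphoma 7, at 8.57, with the lowest tumor-free thymus at 9.09 and the median lymphoma at 9.62. On the second probe set of Fbxw7 (1451558_at) the lowest lymphoma was number 2 at 7.48, with the lowest tumor-free thymus at 8.02. Lymphoma 1 followed at 7.62, both on arrays that stood apart, and lymphoma 3 at 8.00, the lowest of the other 6 and also below all tumor-free thymi. Second probe sets of Phf6 and Etv6 had such a lymphoma too, lymphoma 1 at 6.19 on 1454625_at (lowest tumor-free thymus 6.80) and lymphoma 5 at 5.84 on 1423401_at (6.37). On the main Phf6 probe set lymphoma 1 was the highest of all thymi, at 9.43. Its array and that of Tcf1+/- mouse 1, the tumor-free thymus at 6.80, stood apart. The second Rb1 probe set (1444400_at) was below the signal limit used for testing, the 40th percentile, in all 17 arrays, with lymphoma 7 at 4.11.

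Fbxw7 passed in no comparison on its main probe set (1424986_s_at). Lymphomas ranged from 7.59 through a median of 8.41 to 9.50, Tcf1-/- thymi were at 8.84, 8.49, 8.55 and 8.14, and Tcf1+/- thymi at 8.63, 8.59, 8.46, 9.06 and 8.65. All groups overlapped, but lymphomas were spread more widely, from lymphoma 3 at the bottom to lymphoma 5 at the top, and lymphoma 5 was also the highest on the second probe set, at 9.26. The lymphoma mean differed from that of Tcf1-/- thymi by 0.01 (95% confidence interval -0.58 to 0.60) and from that of Tcf1+/- thymi by -0.17 (-0.69 to 0.36). On the main probe set 5 of 8 lymphomas lay below the lowest Tcf1+/- thymus and 1 above the highest. On the second probe set the differences from Tcf1+/- thymi were -0.44 in lymphomas (limma adjusted p = 0.409) and -0.47 in Tcf1-/- thymi (adjusted p = 0.247).

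Some substrates of Fbxw7 changed. Of 7 listed and tested, 1 passed as higher in lymphomas against Tcf1-/- thymi (6.34% of all genes did), 1 as higher in lymphomas against Tcf1+/- thymi (8.51%), and 2 were higher and 1 lower in Tcf1-/- than in Tcf1+/- thymi (10.1% and 4.7%). Notch1, a receptor that drives T-lineage commitment, averaged 12.97 ± 0.24 in lymphomas and 10.87 ± 0.12 in Tcf1+/- thymi (SD, n = 8 and 5), a difference of 2.10 (limma adjusted p = 1.18e-06), and was 1.57 higher in Tcf1-/- than in Tcf1+/- thymi (adjusted p = 0.00496). Ccne1, which encodes cyclin E1, exceeded its Tcf1-/- level in lymphomas by 1.48 (adjusted p = 0.0302) and was 1.52 lower in Tcf1-/- than in Tcf1+/- thymi (log2 difference -1.52, adjusted p = 0.00728). Jun, a subunit of AP-1, was 2.26 higher in Tcf1-/- than in Tcf1+/- thymi (adjusted p = 0.0196). An array measures their transcripts, whereas Fbxw7 acts on the proteins. The SCF partners tested, 2 in all, did not pass in any of the 3 comparisons.

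Rb1 was lower on average in lymphomas than in Tcf1+/- thymi without passing the test. Lymphomas ranged from 8.57 through a median of 9.62 to 10.57, Tcf1-/- thymi were at 9.09, 10.21, 9.90 and 9.95, and Tcf1+/- thymi at 9.88, 9.36, 10.44, 10.65 and 10.57. No lymphoma was above the highest Tcf1+/- thymus, 2 were below the lowest, and the groups overlapped. The difference between lymphomas and Tcf1+/- thymi was -0.51 (SE 0.31, limma adjusted p = 0.343). With array weights, which were estimated from the same values, it was -1.05 and passed (limma adjusted p = 0.000451). With these weights 6134 of all 13755 genes passed in this comparison, against 1749 without them. Unweighted, it was -0.92 within the 13 arrays and 0.18 within the 4 that stood apart, so its direction was not shared by the array sets.

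Among Rb1's relatives and the E2F factors that they hold in check, 9 were tested. Between lymphomas and Tcf1+/- thymi 1 was higher and 1 lower, where 8.51% and 4.21% of all genes were. In Tcf1-/- thymi 1 was lower than in Tcf1+/- thymi (4.7% of all genes). Between lymphomas and Tcf1-/- thymi 0 passed, where 14.7% of all genes did. E2f2 averaged 8.86 ± 0.67 in lymphomas and 10.70 ± 0.15 in Tcf1+/- thymi (SD, n = 8 and 5), a log2 difference of -1.84 (limma adjusted p = 0.00125), and in Tcf1-/- thymi it averaged 8.49 ± 0.65 (difference from Tcf1+/- thymi -2.21, adjusted p = 0.000557). E2f1 went the other way and passed as 0.73 higher in lymphomas compared with Tcf1+/- thymi (adjusted p = 0.0379).

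Etv6 was the gene of the 8 with the clearest difference, and it separated both Tcf1-/- groups from the controls. Lymphomas ranged from 8.29 through a median of 9.24 to 9.89 on its main probe set (1434880_at), Tcf1-/- thymi were at 9.35, 8.85, 9.41 and 8.98, and Tcf1+/- thymi at 8.06, 7.54, 8.02, 8.42 and 8.44. All 4 Tcf1-/- thymi and 7 of 8 lymphomas were above the highest Tcf1+/- thymus, and lymphoma 5 was the exception.

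Tcf1-/- thymi exceeded Tcf1+/- thymi in Etv6 by 1.05 (SE 0.22, 2.08-fold, limma adjusted p = 0.00835; exact two-sided permutation p = 0.0159, the smallest that 4 against 5 mice allow). Groups without overlap in this direction were found for 11.2% of all genes tested. The call held when any 1 mouse was left out (adjusted p 0.0113 to 0.0309) and within the 13 arrays (0.86, adjusted p = 0.0166). By the exact Mann-Whitney U test, the test named in the study's methods, its adjusted p was 0.0944, and 0 of 13755 genes passed in this comparison, against 2037 by limma. Etv6 already had the smallest p that this test allows for 4 against 5 mice. Even genes without overlap did not reach the threshold after adjustment, so this test could not decide the call.

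Lymphomas exceeded Tcf1+/- thymi in Etv6 by 1.03 (SE 0.27, 2.04-fold, limma adjusted p = 0.0232; exact two-sided permutation p = 0.00622), and both comparisons share the 5 Tcf1+/- thymi. This call was less steady. The difference was 1.75 within the 4 arrays that stood apart and 0.69 within the other 13, where the limma adjusted p was 0.199. The mouse number as a block pairs lymphomas 1 to 5 with the Tcf1+/- mice of the same number. The labels do not give this pairing. With the block the difference was 0.83 (limma adjusted p = 0.128), and over the same 10 arrays without the block the adjusted p was 0.14. Without Tcf1+/- mouse 1, 2 or 3 the difference was 1.02, 0.89 and 1.01 (limma adjusted p = 0.0514, 0.0684 and 0.0563). In a fit that included Y-linked signal it was 1.06 (adjusted p = 0.0769), and by the exact Mann-Whitney U test its adjusted p was 0.0555. Lymphomas and Tcf1-/- thymi differed in Etv6 by -0.02 (95% confidence interval -0.65 to 0.60).

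The second Etv6 probe set (1423401_at) showed smaller differences that did not pass, 0.38 between lymphomas and Tcf1+/- thymi (limma adjusted p = 0.359) and 0.21 between Tcf1-/- and Tcf1+/- thymi (adjusted p = 0.597). Over the 17 arrays both probe sets correlated at r = 0.54, and lymphoma 5 was the lowest lymphoma on both, at 8.29 and 5.84. Genes most like Etv6 over the 17 arrays were Stt3a, a catalytic subunit of oligosaccharyltransferase (r = 0.89), Tmed5, a cargo receptor of the early secretory pathway (r = 0.88), and Polr1a, the largest subunit of RNA polymerase I (r = 0.87). The points of each correlation are unsorted thymi of 3 groups and share their arrays.

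Other cell types changed along with these groups, and since unsorted thymus cells were measured, fewer cells of a type and less RNA per cell cannot be told apart. Macrophage and monocyte markers passed as higher in Tcf1-/- than in Tcf1+/- thymi for 11 of 11 genes (mean 9.04 to 11.14 in Tcf1-/- thymi and 6.85 to 8.05 in Tcf1+/- thymi) and B-cell markers for 8 of 9 (9.01 to 11.01 in Tcf1-/- thymi and 6.30 to 6.97 in Tcf1+/- thymi). NK-cell markers did so for 4 of 5, dendritic-cell markers for 6 of 8 and fibroblast markers for 4 of 8, and T-lineage markers were lower for 6 of 9, those of thymic epithelium for 1 of 10 and those of erythroid cells for 0 of 2. Against Tcf1-/- thymi, lymphomas were lower in macrophage markers for 10 of 11 genes, in B-cell markers for 8 of 9, in NK-cell markers for 4 of 5, in dendritic-cell markers for 7 of 8 and in thymic epithelium for 4 of 10, and 0 of 8 fibroblast markers changed. In lymphomas the macrophage mean was 5.89 to 8.52 and the B-cell mean 6.06 to 7.14, and 0 of 11 and 0 of 9 passed against Tcf1+/- thymi. In that comparison NK-cell markers were higher for 1 and lower for 3 of 5 genes, dendritic-cell markers lower for 4 of 8 and thymic epithelium markers lower for 2 of 10. Lymphomas 1 and 2, on arrays that stood apart, had the lowest macrophage means, at 5.89 and 5.93, and Etv6 signals of 9.58 and 9.53. On such arrays too, Tcf1+/- mice 1 and 2 had the lowest macrophage means of the controls, at 6.93 and 6.85. Their Etv6 signals were 8.06 and 7.54. T-lineage markers were lower in lymphomas than in Tcf1+/- thymi for 4 of 9 genes. Etv6 correlated with the T-lineage mean at r = -0.68 over 17 arrays and at r = -0.58 within the 13 that did not stand apart. The part of these cells in the Etv6 difference was not tested.

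Other ETS factors were tested beside Etv6. Of 8 other factors tested, 2 were lower in lymphomas than in Tcf1+/- thymi (4.21% of all genes were) and 1 was lower in Tcf1-/- than in Tcf1+/- thymi (4.7%). In no comparison was any higher, where 8.51% of all genes passed as higher in lymphomas and 10.1% in Tcf1-/- thymi against Tcf1+/- thymi. Ets2 averaged 10.98 ± 0.76 in lymphomas, 9.82 ± 0.94 in Tcf1-/- thymi and 12.44 ± 0.23 in Tcf1+/- thymi (SD, n = 8, 4 and 5), and its log2 differences from Tcf1+/- thymi were -1.46 in lymphomas (limma adjusted p = 0.0102) and -2.62 in Tcf1-/- thymi (adjusted p = 0.00125). Ets1, which is required for normal thymocyte development, was 0.53 lower in lymphomas than in Tcf1+/- thymi (log2 difference -0.53, adjusted p = 0.0224).

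**Figure D2:**
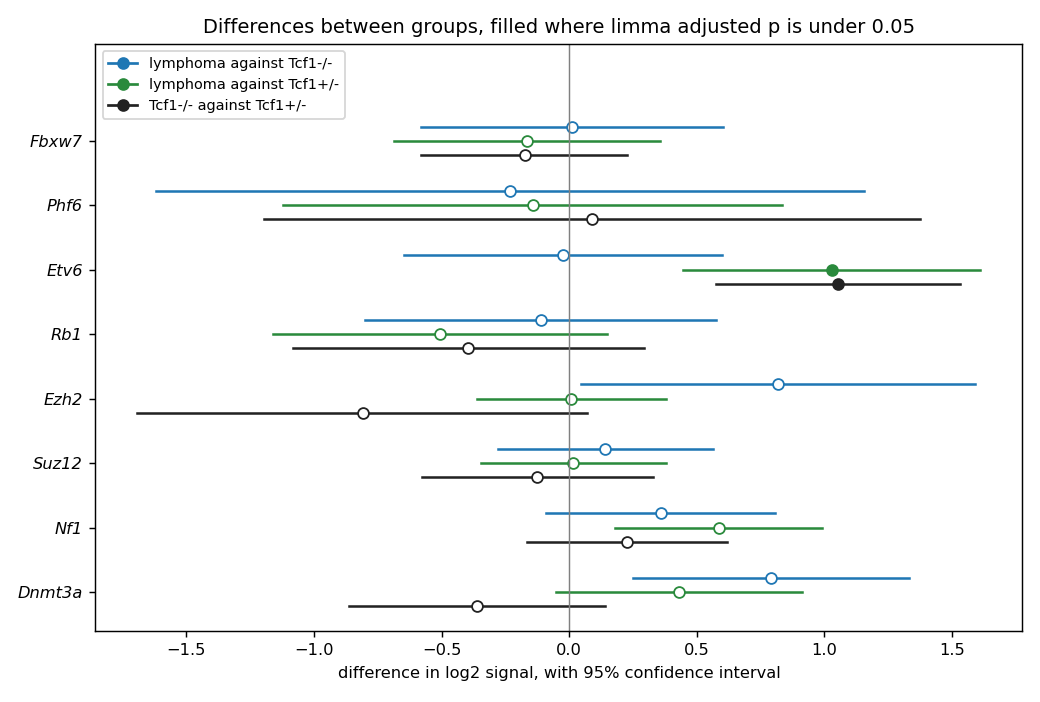
Difference in log2 signal (horizontal axis) for each of the 8 genes in the 3 comparisons, with lymphomas or Tcf1-/- thymi as the first group; points are differences of means, lines the 95% confidence intervals from limma, and filled points passed at an adjusted p under 0.05. Filled points are those of Etv6 against Tcf1+/- thymi, at 1.03 and 1.05.

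Dnmt3a averaged more in lymphomas than in Tcf1-/- thymi on all 5 of its probe sets, and 3 of them passed as higher. On the main one (1423063_at) lymphomas ranged from 8.60 through a median of 9.05 to 9.76, Tcf1-/- thymi were at 7.89, 8.68, 8.58 and 8.09, and Tcf1+/- thymi at 9.11, 8.51, 8.22, 8.72 and 8.80. Lymphomas were above the highest Tcf1-/- thymus in 6 of 8 cases, and lymphomas 4 and 5 lay within its range. The difference was 0.79 (SE 0.25, 1.73-fold, limma adjusted p = 0.0503; exact two-sided permutation p = 0.0121), just short of the threshold.

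On the other probe sets of Dnmt3a the difference between lymphomas and Tcf1-/- thymi was 1.29 for 1423065_at (limma adjusted p = 0.032), 0.88 for 1423064_at (0.0349), 0.79 for 1460324_at (0.0314) and 0.75 for 1423066_at (0.0875). Correlations between the 5 probe sets were 0.45 to 0.94 over the 17 arrays. Over the 13 arrays alone the main difference was 0.67 (limma adjusted p = 0.0852), and it was 0.53 (adjusted p = 0.516) in a fit that included Y-linked signal. Dnmt3a correlated at r = -0.65 with the macrophage marker mean over 17 arrays, and at r = -0.53 without Tcf1-/- mouse 1. Within the 13 arrays r was -0.55, and -0.33 without that mouse. The marker mean was 5.89 to 8.52 in lymphomas and 9.04 to 11.14 in Tcf1-/- thymi. The part of these cells in the Dnmt3a difference was not tested.

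Against Tcf1+/- thymi the lymphomas differed in Dnmt3a by 0.43 on the main probe set (limma adjusted p = 0.259), and 1 of 5 probe sets passed, 1423064_at, with 0.68 (adjusted p = 0.0375). There 6 of 8 lymphomas lay above all 9 tumor-free thymi. On 1423065_at lymphomas 1 and 2, both on arrays that stood apart, were the highest of all thymi at 10.54 and 9.82, while on 1423064_at lymphoma 2 was the lowest lymphoma at 8.36. Tcf1-/- and Tcf1+/- thymi differed by -0.36 on the main probe set (adjusted p = 0.38) and on 0 of 5 probe sets past the threshold.

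**Figure D3:**
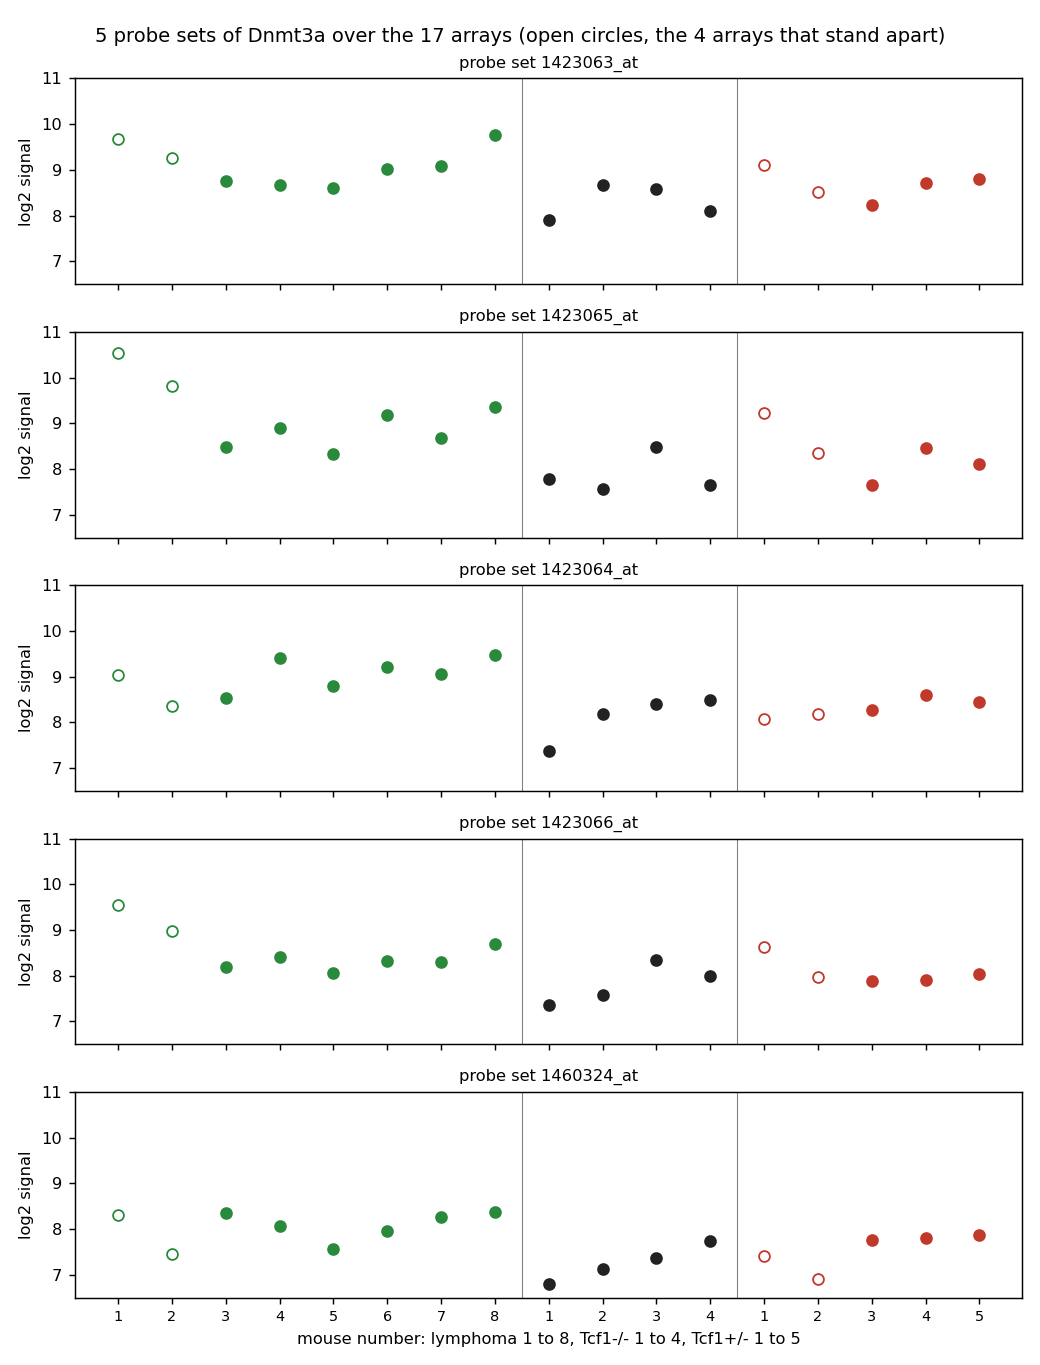
Log2 signal (vertical axes, which do not start at 0) of the 5 probe sets of Dnmt3a in each of the 17 thymi, ordered from left to right as lymphomas, Tcf1-/- thymi and Tcf1+/- thymi; open circles are the 4 arrays that stood apart. Lymphomas lie above most Tcf1-/- thymi on each probe set, and the open circles of lymphomas 1 and 2 lead on 1423065_at and 1423066_at but not on 1423064_at.

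Of the other genes of DNA methylation, 6 were tested. Dnmt3b, the second de novo methyltransferase, was higher in both Tcf1-/- groups than in the controls. It ranged from 8.21 to 9.999 in lymphomas, at 8.31, 8.72, 9.13 and 9.53 in Tcf1-/- thymi and at 8.00, 7.64, 7.78, 7.77 and 7.89 in Tcf1+/- thymi, so that neither group overlapped with the controls. Such an order was found for 4.78% of all genes for lymphomas and for 11.2% for Tcf1-/- thymi. The differences were 1.30 for lymphomas (limma adjusted p = 0.00836) and 1.10 for Tcf1-/- thymi (adjusted p = 0.00905), whereas lymphomas and Tcf1-/- thymi differed by 0.19 (adjusted p = 0.755). No other gene of the list passed in any comparison. Against Tcf1+/- thymi 8.51% of all genes passed as higher in lymphomas and 10.1% in Tcf1-/- thymi.

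Ezh2 was close to the controls in lymphomas and low in a single Tcf1-/- thymus. Lymphomas ranged from 11.20 through a median of 11.55 to 12.10, Tcf1-/- thymi were at 9.30, 11.50, 11.32 and 11.28, and Tcf1+/- thymi at 11.87, 11.57, 11.51, 11.71 and 11.63. All 4 Tcf1-/- thymi lay below all 5 Tcf1+/- thymi, an order that 6.11% of all genes tested showed. The difference was -0.81 (SE 0.40, limma adjusted p = 0.238; exact two-sided permutation p = 0.0159) and -0.29 without Tcf1-/- mouse 1 (adjusted p = 0.258).

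Between lymphomas and Tcf1-/- thymi Ezh2 differed by 0.82 (SE 0.36, limma adjusted p = 0.144), and by 0.30 without that mouse (adjusted p = 0.474). Between lymphomas and Tcf1+/- thymi the difference was 0.01 (95% confidence interval -0.36 to 0.38). In the same Tcf1-/- mouse 1 the mean of 11 proliferation genes was 9.30, with 11.01 to 11.08 in the other Tcf1-/- thymi, and the macrophage and B-cell marker means were the highest of all thymi, at 11.14 and 11.01. The part of other cells in its low Ezh2 signal was not tested.

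Suz12 barely differed between groups on its main probe set (1420021_s_at). Lymphomas ranged from 10.91 through a median of 11.09 to 11.81, Tcf1-/- thymi were at 10.52, 11.14, 11.22 and 11.29, and Tcf1+/- thymi at 11.28, 10.74, 11.12, 11.38 and 11.33. Lymphomas differed by 0.14 from Tcf1-/- thymi and by 0.02 from Tcf1+/- thymi, and Tcf1-/- differed from Tcf1+/- thymi by -0.12, with 95% confidence intervals that all lay within -0.58 and 0.56. Lymphoma 4 stood out above all other thymi at 11.81, and it was also the highest on 1449661_at (8.53) and 1420022_s_at (9.01). On 1427253_s_at, 1452364_at and 1420020_at it was not, at 10.70, 9.996 and 7.54. Tumor-free thymi reached 11.19, 10.24 and 7.90 there.

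The 6 probe sets of Suz12 went in different directions. Their correlations over the 17 arrays were -0.18 to 0.97, and the difference between lymphomas and Tcf1-/- thymi was -0.62 on 1427253_s_at and 0.94 on 1420022_s_at, neither past the threshold (limma adjusted p = 0.126 and 0.157).

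On the main probe set of Suz12, Ezh2 and Suz12 varied together over the 17 arrays (r = 0.72, rho = 0.64, and r = 0.59 without Tcf1-/- mouse 1). Without that mouse and lymphoma 4, r was 0.41. The main Suz12 probe set correlated at r = 0.40 with the next brightest, 1427253_s_at. The relation of Ezh2 to the other Suz12 probe sets was not tested. Genes most like Ezh2 were Bub1b, a kinase of the spindle checkpoint (r = 0.96), Kif2c, a microtubule depolymerase of mitosis (r = 0.95), and Incenp, a subunit of the chromosomal passenger complex (r = 0.94). Without Tcf1-/- mouse 1 these r were 0.90, 0.80 and 0.85. With the mean of the 11 proliferation genes Ezh2 correlated at r = 0.80, but rho was 0.21 and r was 0.10 without Tcf1-/- mouse 1, so the relation over all arrays rested on that mouse. Within the 13 arrays r was 0.97, and 0.79 without it. None of the 11 proliferation genes passed in any comparison.

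**Figure D4:**
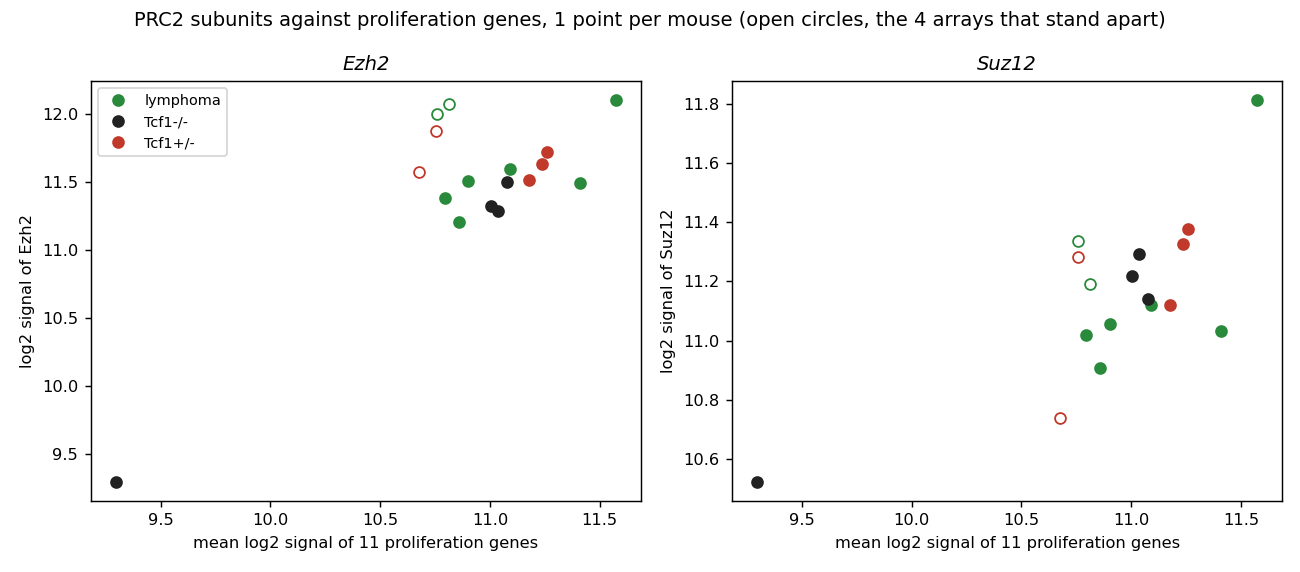
Log2 signal of Ezh2 and of Suz12 (vertical axes) against the mean log2 signal of 11 proliferation genes (horizontal axis), with 1 point per mouse for lymphomas, Tcf1-/- thymi and Tcf1+/- thymi; open circles are the 4 arrays that stood apart and axes do not start at 0. A single Tcf1-/- thymus lies at the lower left with a proliferation mean of 9.30, apart from the other 16 mice.

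Among 9 PRC2 partners 1 was higher and 2 were lower in lymphomas compared with Tcf1-/- thymi, where 6.34% and 8.35% of all genes were. Against Tcf1+/- thymi 1 was lower in lymphomas (4.21% of all genes) and 1 was higher in Tcf1-/- thymi (10.1%). Ezh1, the second methyltransferase of the complex, was at 8.03 to 8.45 in lymphomas, at 9.46, 8.62, 8.67 and 8.66 in Tcf1-/- thymi and at 8.87, 8.64, 8.70, 8.74 and 8.78 in Tcf1+/- thymi. All 8 lymphomas lay below all 9 tumor-free thymi (6.27% of all genes lay so against Tcf1-/- thymi and 1.9% against Tcf1+/- thymi), with log2 differences of -0.63 from Tcf1-/- thymi (limma adjusted p = 0.0297) and -0.52 from Tcf1+/- thymi (adjusted p = 0.0123). Phf1 and Phf19, Polycomb-like accessory subunits, moved in opposite directions between lymphomas and Tcf1-/- thymi, by -1.45 (adjusted p = 0.0133) and 0.60 (adjusted p = 0.0175). Phf1 was 1.28 higher in Tcf1-/- than in Tcf1+/- thymi (adjusted p = 0.0357). Of 7 genes known as PRC2 targets 4 passed the filter on low signals and 0 changed.

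Nf1 came close to the threshold between lymphomas and Tcf1+/- thymi on its main probe set (1438067_at). Lymphomas ranged from 5.77 through a median of 6.18 to 6.76, Tcf1-/- thymi were at 5.51, 5.92, 5.92 and 6.09, and Tcf1+/- thymi at 5.76, 5.24, 5.65, 5.85 and 5.66. The highest Tcf1+/- thymus was exceeded by 7 of 8 lymphomas. The difference was 0.59 (SE 0.19, limma adjusted p = 0.0577; exact two-sided permutation p = 0.00311), with 0.52 within the 4 arrays that stood apart and 0.56 within the other 13. By the exact Mann-Whitney U test it passed (adjusted p = 0.0365).

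The other Nf1 probe sets did not show it, at 0.01 for 1441523_at and 0.13 for 1452525_a_at, which exceeded the signal limit in 8 and 0 of the 17 arrays. Lymphomas and Tcf1-/- thymi differed in Nf1 by 0.36 (limma adjusted p = 0.275). Of 6 Ras proteins and regulators tested, Rasa3, another GTPase activator, was lower in lymphomas than in Tcf1-/- thymi (log2 difference -1.70, adjusted p = 0.00177) and than in Tcf1+/- thymi (-0.61, adjusted p = 0.045), and Spred1, which recruits the Nf1 protein to the membrane, was lower in Tcf1-/- than in Tcf1+/- thymi (-1.02, adjusted p = 0.0217). Of 7 transcripts that follow Ras/ERK activity 1 changed, Egr1, which was lower in Tcf1-/- than in Tcf1+/- thymi (-2.24, adjusted p = 0.00226). Of all genes 8.35% passed as lower between lymphomas and Tcf1-/- thymi, 4.21% between lymphomas and Tcf1+/- thymi and 4.7% between Tcf1-/- and Tcf1+/- thymi.

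Phf6 varied more between mice than the other 7 genes, and its probe sets disagreed. On the main one (1430415_at) lymphomas ranged from 6.07 through a median of 7.82 to 9.43, Tcf1-/- thymi were at 9.35, 8.29, 8.60 and 5.99, and Tcf1+/- thymi at 8.82, 8.01, 7.57, 7.54 and 7.89. Lymphoma 7 and Tcf1-/- mouse 4 were both low, and without that Tcf1-/- mouse lymphoma 7 would lie more than 1 below all tumor-free thymi. Its SD among lymphomas, 1.04, was larger than that of 93.4% of the genes tested, and its SD among the tumor-free thymi, 1.03, than that of 98.5%.

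Where the main probe set of Phf6 was low the others were high. It correlated at r = -0.73 with 1454625_at and at r = -0.56 with 1453761_at over the 17 arrays, while 1454625_at and 1453761_at correlated at 0.66 with each other. Lymphoma 7 was the highest lymphoma on 1454625_at, at 8.54, and Tcf1-/- mouse 4 the highest Tcf1-/- thymus there, at 7.86. Both mice were thus low on the main probe set and not on 1454625_at.

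On 1453761_at the lymphomas fell apart, with lymphomas 3 and 7 at 7.38 and 7.27 and the other 6 at 4.12 to 4.83. Tcf1-/- thymi were at 5.38, 6.67, 5.63 and 7.50, and Tcf1+/- thymi at 4.11, 4.66, 8.52, 7.35 and 7.91, with the 2 lowest on arrays that stood apart. This probe set exceeded the signal limit in 9 of 17 arrays. No probe set of Phf6 passed in any comparison (limma adjusted p 0.319 to 0.947). In the NuRD complex, which Phf6 binds, 2 of 9 subunits were higher in lymphomas than in Tcf1-/- thymi, where 6.34% of all genes were. These were Gatad2b by 1.12 (limma adjusted p = 0.00221) and Mbd3 by 0.93 (adjusted p = 0.0369). From Tcf1+/- thymi Gatad2b differed by -0.11 in lymphomas (adjusted p = 0.863) and by -1.23 in Tcf1-/- thymi (adjusted p = 0.0535). Only 1, Mta1, exceeded its Tcf1+/- level in lymphomas, by 1.07 (adjusted p = 0.0056), where 8.51% of all genes did.

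**Figure D5:**
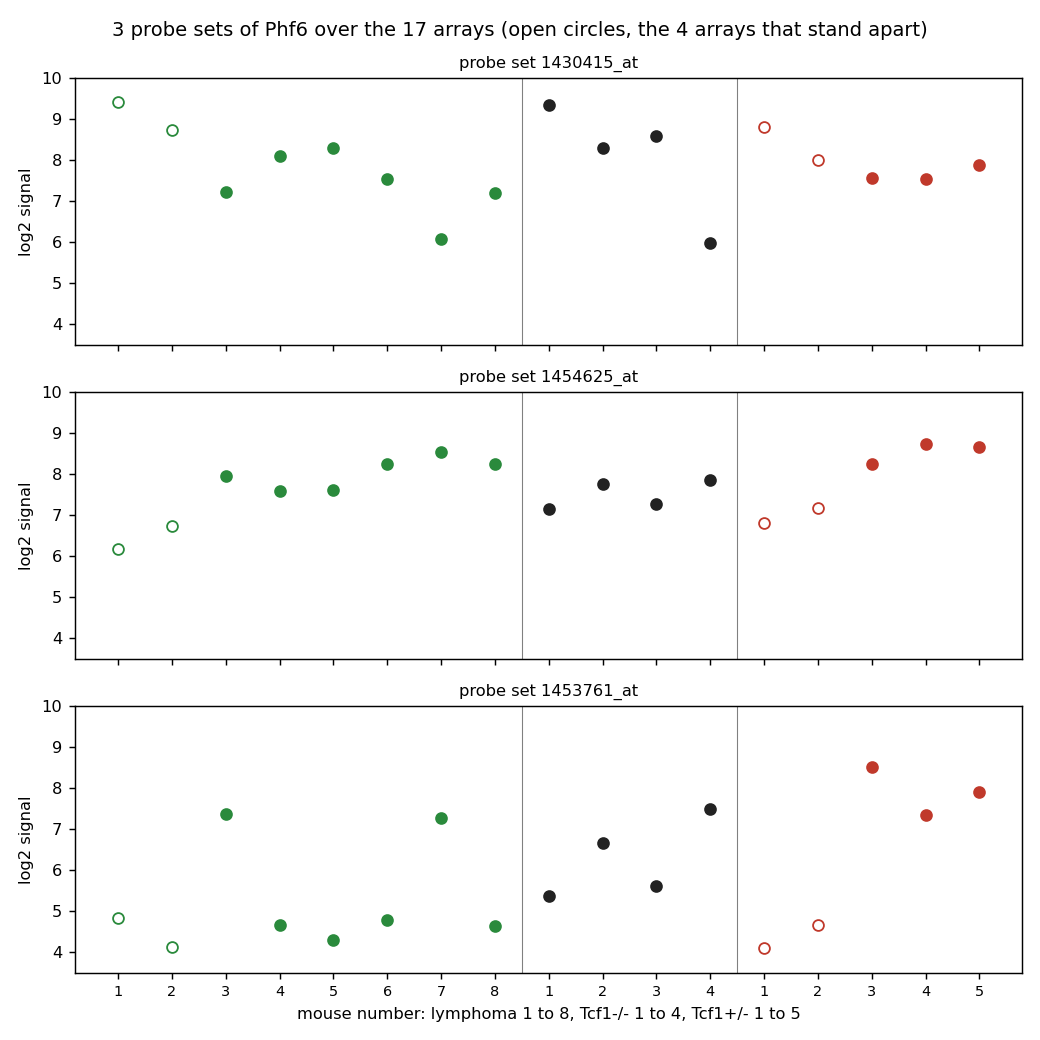
Log2 signal (vertical axes, which do not start at 0) of the 3 probe sets of Phf6 in each of the 17 thymi, ordered from left to right as lymphomas, Tcf1-/- thymi and Tcf1+/- thymi; open circles are the 4 arrays that stood apart. Lymphoma 7 and Tcf1-/- mouse 4 are lowest on 1430415_at, at 6.07 and 5.99, and are the highest lymphoma and the highest Tcf1-/- thymus on 1454625_at, at 8.54 and 7.86.

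Between pairs of the 8 genes, Etv6 and Rb1 ran most clearly against each other within the 13 arrays that did not stand apart (r = -0.87), with r = -0.51 and rho = -0.46 over all 17. Lymphoma 7 had the highest Etv6 signal and the lowest Rb1 signal of all thymi. Without the 2 arrays farthest from the Rb1 median, Tcf1-/- mouse 1 and lymphoma 7, r over the other 15 was -0.28. Leaving out arrays chosen by their Rb1 signal can itself weaken r. Both mice were among the 13 arrays, where r without Tcf1-/- mouse 1 was -0.865. Nf1 and Dnmt3a varied in the same direction, at r = 0.58 over 17 arrays and 0.75 within the 13. Genes most like the other members over the 17 arrays were Scamp3, Kif21b and Castor2 for Fbxw7 (r = 0.89, 0.85 and 0.85), H3f3a, Zzef1 and Prdm2 for Phf6 (0.91, 0.91 and 0.90), Ppm1b, Trat1 and Tubb2b for Rb1 (0.90, 0.85 and 0.82), Strbp, Mcm4 and Odf2 for Suz12 (0.83, 0.82 and 0.82), 1700086O06Rik, Poldip2 and Zbtb11os1 for Nf1 (0.92, 0.91 and 0.89), and Flot2, Api5 and Lamtor1 for Dnmt3a (0.89, 0.86 and 0.86).

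Other suppressors of T-cell leukemia were followed as well. Of 18 tested, 1 was lower in lymphomas than in Tcf1-/- thymi (8.35% of all genes were). Against Tcf1+/- thymi 1 was higher and 2 lower in lymphomas (8.51% and 4.21%), and 1 was higher and 3 lower in Tcf1-/- thymi (10.1% and 4.7%). Median differences were 0.04, -0.27 and -0.16 beside medians over all genes of 0.099, 0.056 and -0.015. Cdkn1b, which encodes the cyclin-dependent kinase inhibitor p27, was lower than in Tcf1+/- thymi both in lymphomas (log2 difference -0.97, limma adjusted p = 0.0059) and in Tcf1-/- thymi (-0.79, adjusted p = 0.0177). Bcl11b, a zinc finger factor of T-lineage commitment, was likewise lower in lymphomas (-0.67, adjusted p = 0.0113) and in Tcf1-/- thymi (-0.97, adjusted p = 0.0244). Sh2b3, an adaptor that restrains cytokine signaling, was lower in lymphomas than in Tcf1-/- thymi (-1.78, adjusted p = 0.00766) and 1.47 higher in Tcf1-/- than in Tcf1+/- thymi (adjusted p = 0.00417). Ptpn2, a phosphatase of JAK and STAT proteins, exceeded its Tcf1+/- level in lymphomas by 0.76 (adjusted p = 0.00442), and Smarca4, the ATPase of SWI/SNF complexes, was lower in Tcf1-/- than in Tcf1+/- thymi (-0.56, adjusted p = 0.0447).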

How the data were processed

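Thymus RNA of 17 mice was hybridized to 1 array each. The authors deposited log2 values made by RMA, which corrects background, equalizes array distributions and summarizes probe sets. Whether all arrays were normalized together is not given in the sources used here. Of 45101 probe sets, 64 were controls, 34945 carried 1 gene symbol in the platform annotation, 932 several and 9160 none. Genes were tested (13755 of them) if their signal exceeded an array's 40th percentile in 4 or more arrays, by limma 3.58.1 in R 4.3.3 with a fit for each pair of groups, and single genes also by exact permutation tests (scipy 1.17.1). Fits were tested on simulated data. Array numbers limit the precision. The genes and lists were chosen with earlier results of these data known, as were the limits that set 4 arrays apart (interquartile range under 3.2) and called Y-linked signal (mean over 5.5). Named genes are the 8, up to 4 called genes with the largest change per list and comparison, and the 3 genes most correlated with each of the 8. A fit of the same mice without the block was added after seeing the data, and motif families and printed promoters were settled after matches were seen. Arrays of lymphoma and Tcf1+/- mice of the same number deviated together in all 5 pairs (r = 0.246 to 0.625). By the rule used (over 0.1 in every pair) they were paired. The labels give no shared litter or batch, and pairs 1 and 2 lie on the 4 arrays that stood apart. For lymphomas 2, 4 and 5 a Tcf1+/- mouse of another number was more alike, so a pairing by number is not established. Arrays of the other group pairs did not meet the rule (r = -0.286 to 0.12).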

Additional observations from a re-analysis of the deposited data

Results flagged for a closer look

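Mice far from the rest of their group were sought for the 8 genes in each of the 3 groups, 24 groups in all, by the gap to the nearest other mouse as a share of the range. Chance marks about 1 in 20 such groups. Ezh2 in Tcf1-/- mouse 1 was at 9.296, and the nearest other Tcf1-/- thymus was at 11.284. Suz12 in lymphoma 4 was at 11.813, and the nearest other lymphoma was at 11.337.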

How the results depend on the processing

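Of 629 values of the 8 genes under other settings 536 kept direction and call, 63 changed sign, 19 passed the threshold anew and 11 lost it. All 63 sign changes were uncalled in both settings, fell in 11 of 24 comparisons, and their cause was not tested. Between lymphomas and Tcf1-/- thymi, where 0 genes passed, 1 did (Dnmt3a) with all 17 arrays in 1 fit, the 60th percentile, the mean of a gene's probe sets, the second probe set or median centring, 2 did (with Nf1) with array weights, and 0 to 1 with 1 mouse left out. Dnmt3a passed without lymphoma 3, 4 or 5 (adjusted p = 0.0446, 0.0387 and 0.0358), and over all mice left out its limma adjusted p was 0.0358 to 0.184. Between lymphomas and Tcf1+/- thymi, where Etv6 alone passed, 2 did (with Nf1) with all 17 arrays or the array set as a block, 4 did with array weights (Rb1 and Dnmt3a too), and 0 did with the mouse number as a replicate block, the same mice without it, the second probe set, without the 4 arrays or with the Y-linked covariate. With array weights 6134 of all 13755 genes passed in that comparison and with the array set as a block 3753, against 1749 without. Array weights called 4501 genes between lymphomas and Tcf1-/- thymi (2020 without) and 5611 between Tcf1-/- and Tcf1+/- thymi (2037 without, 3418 with the array set as a block). With 1 mouse left out 0 to 2 of the 8 passed. Nf1 passed without lymphoma 3 or 4, and by the Mann-Whitney U test it passed and Etv6 did not (adjusted p = 0.0555). Between Tcf1-/- and Tcf1+/- thymi, where 1 passed, 0 did with the second probe set, 2 did with array weights (with Rb1), and 1 throughout with 1 mouse left out. By the Mann-Whitney U test 0 did there, but 0 of all 13755 genes passed, so that test could not decide the call. A lymphoma more than 0.5 below all tumor-free thymi was found for 2 genes on the main probe sets, and with 1 mouse left out the count at 1 was 0 to 1 (Phf6, without Tcf1-/- mouse 4). The replicate block changed no other call.

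Sign changes between lymphomas and Tcf1-/- thymi came for Fbxw7 with the replicate block or the same mice (-0.15) and weights (-0.082), for Phf6 with the replicate block or the same mice (0.318) and the second probe set (0.127), for Etv6 with the mean of probe sets (0.071), the second (0.167), centring (0.022) and weights (0.039), for Rb1 with the replicate block or the same mice (0.16), the mean (0.097) and the Y-linked covariate (0.162), and for Suz12 with the second probe set (-0.617) and weights (-0.027). Leaving out 1 mouse gave -0.132 to 0.141 for Fbxw7, -0.923 to 0.201 for Phf6, -0.134 to 0.094 for Etv6, -0.344 to 0.046 for Rb1 and -0.033 to 0.224 for Suz12. Between lymphomas and Tcf1+/- thymi they came for Phf6 with the replicate block or the same mice (0.391) and the array set block (0.047), for Ezh2 with quantile normalization (-0.038), without the 4 arrays (-0.072) and with weights (-0.073), and for Suz12 with the mean (-0.035), the second probe set (-0.449), quantile normalization (-0.039), without the 4 arrays (-0.117) and with weights (-0.18). Leaving out 1 mouse gave -0.372 to 0.107 for Phf6, -0.054 to 0.075 for Ezh2 and -0.092 to 0.068 for Suz12. Between Tcf1-/- and Tcf1+/- thymi they came for Phf6 with the mean (-0.178), the second probe set (-0.41) and quantile normalization (-0.021), for Suz12 with the second probe set (0.168), and for Nf1 with the mean (-0.006) and the second probe set (-0.253). Leaving out 1 mouse gave -0.343 to 0.78 for Phf6 and -0.233 to 0.049 for Suz12. Probe sets below the 40th percentile in all arrays, 1 each of Rb1 and Nf1, limit what their signal can show.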
